A study of Rattus norvegicus with 18 samples.

Results

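Components of cyclic AMP (cAMP) and G protein signalling were followed across 2 rat thyroid cell lines and a time course of thyroid-stimulating hormone (TSH). A gene was a member when a probe set carried its symbol alone and the symbol named an adenylyl cyclase, a cyclic nucleotide phosphodiesterase, a subunit of protein kinase A (PKA), an A-kinase anchoring protein (AKAP), a G protein alpha, beta or gamma subunit, an RGS protein, a Rap exchange factor of the Rapgef family, or a factor of the CREB, CREM and ATF group. This gave 66 of the 4736 genes measured, on 100 of 8740 probe sets, and each gene is described by the probe set with the highest mean over the 18 arrays. Of the 66 members, 43 had 1 probe set and 23 had several, and the other probe sets are given for the members on which the results turn. Between the basal lines all probe sets of a gene had differences of 1 sign in 12 of the 23 genes. A further 2 probe sets that each carried several symbols were left out. The members were 9 alpha, 5 beta and 5 gamma subunits, 9 RGS proteins, 7 adenylyl cyclases, 12 phosphodiesterases, 4 regulatory and 2 catalytic PKA subunits, 7 AKAPs, 2 Rap exchange factors and 4 CREB, CREM and ATF factors. These families go by gene symbol alone, and enzyme activity was not assessed. The phosphodiesterases thus include Pde6d by its name only.

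In the thyroid follicular cell, the TSH receptor couples mainly to the stimulatory G protein Gs, whose alpha subunit is encoded by Gnas. Gs activates adenylyl cyclases in the membrane, and the cAMP they make releases the catalytic subunits of PKA from the regulatory subunits and activates Epac proteins, which load the small GTPase Rap1 with GTP. PKA phosphorylates CREB at cAMP response elements, and CREB drives, among others, the Crem gene, whose short product ICER represses the same elements. Phosphodiesterases break cAMP down, RGS proteins shorten the active state of alpha subunits, and AKAPs hold PKA at particular places in the cell. In thyroid cells this pathway drives iodide uptake, hormone synthesis and, in lines such as FRTL5, growth.

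FRTL5 is a line of differentiated rat thyrocytes, and FRT/TSHR is a line of de-differentiated ones that by its name carries the TSH receptor. Each was sampled without treatment (basal) and after 30 min and 17 h with bovine TSH, with 3 biological replicates in each of the 6 groups, to follow the response of the lines over time. FRTL5 cells had been kept for 5 days in 5H medium without TSH and were given TSH at 0.1 U/L. FRT/TSHR cells had been kept in Coon's modified F12 medium and were given 1 U/L, and all cells were without serum for 12 h before stimulation. Line, TSH dose and medium therefore differed together and cannot be told apart, and within a line both TSH times were compared with 1 basal group, since no untreated group at 30 min or 17 h was analysed here. Time in culture and TSH cannot be told apart either, and the comparisons within a line share their basal arrays.

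Values are log2 expression from 1-colour Affymetrix arrays, and a difference of 1 is a change of 2-fold. The lines were the main source of variance, with 69.8% on the first principal component. The second component held 9.01% and set the arrays numbered 1 apart, and the 3' minus 5' signal of beta-actin was 1.13 to 1.22 on the FRTL5 arrays numbered 1 against at most 0.28 on the other 15 arrays. Of the 6 thyrocyte markers measured, Tg, Foxe1, Pax8 and Slc5a5 were lower in basal FRT/TSHR than in basal FRTL5 cells, by 7.04 for Tg. The summed thyrocyte marker level (log2 of the sum) was 11.34 to 12.34 in basal FRTL5 and 9.42 to 9.62 in basal FRT/TSHR arrays. Tshr itself had 6.56 ± 0.19 in basal FRTL5 and 6.60 ± 0.14 in basal FRT/TSHR cells (mean ± SD, n = 3), and no source used here says whether its probe set reads the introduced receptor. Members had a median replicate SD of 0.17 (FRTL5) and 0.14 (FRT/TSHR), and 33 of the 66 members had a mean below the median probe set of the table (5.55).

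The promoters of 4 members on which the results turn are shown, since cAMP acts on genes such as Crem through the response element TGACGTCA and its shorter core TGACG. They are RefSeq windows of 300 bases on build GRCr8, with 250 bases before the annotated start and 50 from it, written 5' to 3' on the gene's strand. Capitals mark TGACG, and CGTCA where it stands on the other strand. Crem lies on chr17:58933816-58934115 (plus strand), Pde4b on chr5:122028706-122029005 (plus strand), Rapgef3 on chr7:130776767-130777066 (minus strand) and Gnas on chr3:183489398-183489697 (plus strand).
Crem: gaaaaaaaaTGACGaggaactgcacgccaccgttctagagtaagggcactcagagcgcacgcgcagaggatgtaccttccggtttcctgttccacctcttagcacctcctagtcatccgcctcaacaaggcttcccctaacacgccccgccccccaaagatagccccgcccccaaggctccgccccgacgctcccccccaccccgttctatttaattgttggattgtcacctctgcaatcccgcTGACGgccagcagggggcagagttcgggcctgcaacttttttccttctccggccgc
Pde4b: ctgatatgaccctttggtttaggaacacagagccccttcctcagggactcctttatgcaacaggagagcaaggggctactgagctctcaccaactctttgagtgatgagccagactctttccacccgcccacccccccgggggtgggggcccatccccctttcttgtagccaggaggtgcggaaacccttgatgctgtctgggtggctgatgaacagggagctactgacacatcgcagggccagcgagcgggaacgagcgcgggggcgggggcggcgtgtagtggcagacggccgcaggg
Rapgef3: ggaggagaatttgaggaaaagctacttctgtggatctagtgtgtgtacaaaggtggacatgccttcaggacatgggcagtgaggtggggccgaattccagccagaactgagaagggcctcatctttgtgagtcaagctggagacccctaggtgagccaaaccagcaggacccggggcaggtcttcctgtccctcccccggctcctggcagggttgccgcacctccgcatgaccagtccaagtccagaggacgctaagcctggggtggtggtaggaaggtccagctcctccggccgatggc
Gnas: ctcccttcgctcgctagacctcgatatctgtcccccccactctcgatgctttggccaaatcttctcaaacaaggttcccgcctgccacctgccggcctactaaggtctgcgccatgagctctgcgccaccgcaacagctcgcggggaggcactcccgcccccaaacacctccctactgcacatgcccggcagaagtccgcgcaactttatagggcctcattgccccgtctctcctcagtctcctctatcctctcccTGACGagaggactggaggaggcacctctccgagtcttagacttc
Crem held 2 such cores, beginning 241 and 6 bases before the start, and Gnas held 1, beginning 6 bases after it. The Pde4b and Rapgef3 windows held none, which speaks only of these letters in these windows. Genes with several starts have other promoters that were not used here. That limit applies to the cores found in Crem and Gnas as well. Which transcripts these starts give, and whether cAMP acts through these cores, was not tested. Of the 66 members 51 had a window in the table. A core on either strand stood in 13 of the 51 (25.5%), against 21.2% of all 33469 windows, and a full element, which counts as 2 overlapping cores, in 1 of 51 (1.96%), Gnao1, against 1.83% of all.

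The first comparison set the unstimulated lines against each other. The largest differences among the members were in the G proteins. The stimulatory alpha subunit Gnas was lower in FRT/TSHR than in FRTL5 cells, as were Gnai2, an inhibitory alpha subunit, Gng10 and Gnb5, while Gna15, an alpha subunit of the Gq class that couples many receptors to phospholipase C, was higher. The Epac gene Rapgef3, the regulatory PKA subunits Prkar1a and Prkar2b and the phosphodiesterases Pde3b, Pde4a and Pde7a were lower too, while Prkar1b, another regulatory PKA subunit, was higher. In limma with Benjamini-Hochberg adjustment 17 of the 66 members passed an adjusted p of 0.05 (25.8%, against 25.5% of all probe sets), 4 higher in FRT/TSHR (6.06%, against 13.3%) and 13 lower (19.7%, against 12.2%). The median difference of the members was -0.12, against -0.04 for all probe sets, and the arrays of the lines did not overlap for 24 members (36.4%, against 37%). The members as a whole thus differed between the lines about as often as any probe set. Without the first FRT/TSHR basal replicate 11 members passed.

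**Figure D1:**
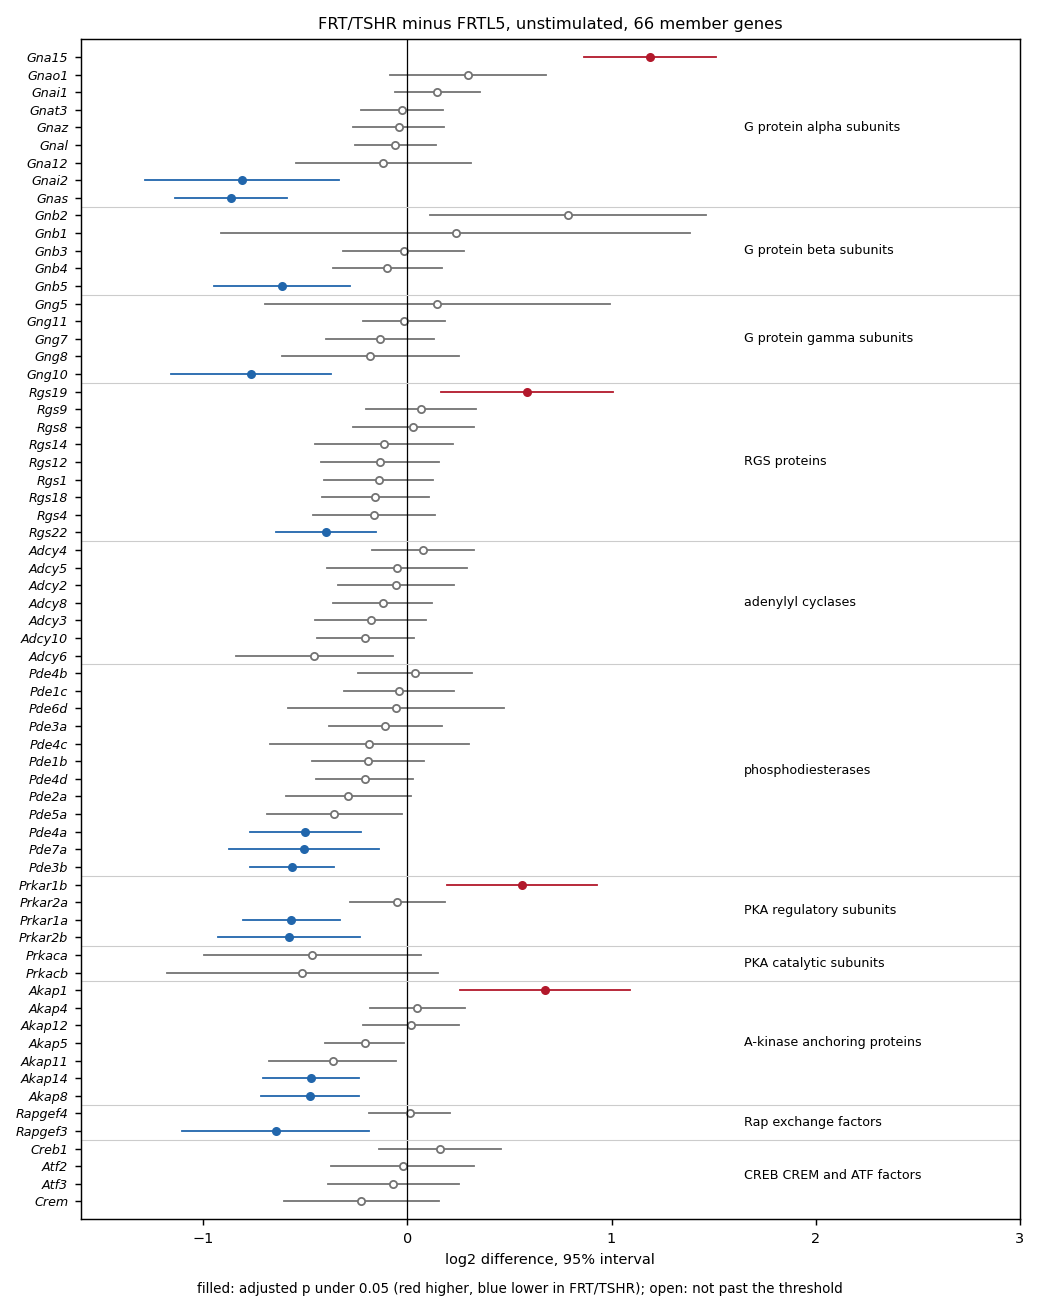
Log2 difference between basal FRT/TSHR and basal FRTL5 cells (x axis, with 95% intervals) for the 66 members (y axis), grouped by role, 3 arrays per line. Filled points are the 17 members with an adjusted p under 0.05. Gna15 at 1.19 lies farthest to the right and Gnas at -0.86 farthest to the left, and 56 members have intervals that lie within -1 and 1.

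Of the 9 alpha subunits 3 differed (33.3%, against 25.5% of all probe sets). Gnas had 13.02, 12.99 and 12.97 on the basal FRTL5 arrays and 11.996, 12.12 and 12.27 on the basal FRT/TSHR arrays. Those values lie toward the upper end of the scale (highest value 13.58), and whether the signal was compressed there was not tested. The FRTL5 arrays lay close together (SD 0.02) and all above FRT/TSHR, a difference of -0.86 ± 0.13 (limma SE), or 1.82-fold lower in FRT/TSHR (adjusted p = 8.09e-05). All 4 probe sets of Gnas were lower in FRT/TSHR, by values from -0.69 to -1.18, and all 4 passed, though X84047cds_at did not without FRTL5 basal replicate 2 or 3 or FRT/TSHR basal replicate 1 (adjusted p = 0.162, 0.103 and 0.181), with only the arrays compared (0.0592) or with arrays shifted to 1 median (0.0537), nor rc_AI237836_at without all arrays numbered 1 (0.0521). Gna15 ran the other way, with 6.50, 6.75 and 6.99 in FRTL5 and 7.85, 8.02 and 7.94 in FRT/TSHR, a difference of 1.19 ± 0.15, or 2.28-fold (adjusted p = 1.58e-05). Gnai2 had 11.18, 10.62 and 10.46 in FRTL5 and 9.62, 10.16 and 10.03 in FRT/TSHR. Its arrays did not overlap either, and the difference was -0.81 ± 0.22 (adjusted p = 0.0126, but 0.0715 without FRTL5 basal replicate 1, 0.0727 without FRT/TSHR basal replicate 1 and 0.0824 without all arrays numbered 1). Of its 3 probe sets 2 passed and all were lower in FRT/TSHR. The second, rc_AA875225_g_at, lost its call without FRTL5 basal replicate 1 or 2 or FRT/TSHR basal replicate 1 (adjusted p = 0.111, 0.116 and 0.150), with only the arrays compared (0.0790) and without all arrays numbered 1 (0.243). The inhibitory subunit Gnai1 differed by 0.15 ± 0.10 (adjusted p = 0.339), and Gna12, Gnal, Gnao1, Gnat3 and Gnaz lay between -0.12 and 0.30, none past the threshold.

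Among the beta and gamma subunits, which form 1 functional unit and signal to ion channels and other effectors, 2 of 10 differed. That was 20% of each family, against 25.5% of all probe sets. Gng10 had 7.04, 7.21 and 7.10 in FRTL5 and 6.59, 6.25 and 6.22 in FRT/TSHR, a difference of -0.77 ± 0.18 (adjusted p = 0.00497). Gnb5, the beta subunit that pairs with RGS proteins of the R7 group, had 6.59, 6.34 and 7.004 against 6.17, 5.90 and 6.01, a difference of -0.61 ± 0.16 (adjusted p = 0.00736), and both its probe sets passed. In each gene the lowest FRTL5 array lay above the highest FRT/TSHR array. Gnb2 had 9.25, 10.29 and 10.35 in FRTL5 and 10.51, 10.85 and 10.90 in FRT/TSHR, without overlap, and its difference of 0.79 ± 0.32 did not pass (adjusted p = 0.0881). The FRTL5 arrays numbered 1 had 9.06 to 9.46 for Gnb2 against 10.02 to 10.35 on the other FRTL5 arrays. Gnb1 showed the same set of arrays apart in both lines, with 7.15 to 7.78 on the arrays numbered 1 and 8.31 to 9.07 on all others, and it differed between the lines by 0.24 ± 0.54 (adjusted p = 0.832). Its other probe sets AF022083_s_at and U88324_at were higher in FRT/TSHR by 0.74 ± 0.29 and 0.92 ± 0.60, and neither passed (adjusted p = 0.0725 and 0.328). Gng8 did not pass with its brightest probe set (-0.18 ± 0.20, adjusted p = 0.616), while its probe set L35921_g_at was higher in FRT/TSHR by 0.44 ± 0.10 (adjusted p = 0.00239).

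Of the 9 RGS proteins, which speed GTP hydrolysis by alpha subunits, 1 was higher and 1 lower (22.2%, against 25.5% of all probe sets). Rgs19, which acts on Gi class subunits, had 6.79, 7.12 and 6.84 in FRTL5 and 7.40, 7.49 and 7.62 in FRT/TSHR, a difference of 0.58 ± 0.20 (adjusted p = 0.0398). Rgs22 had 4.71, 4.63 and 4.99 against 4.44, 4.41 and 4.28, a difference of -0.40 ± 0.12 (adjusted p = 0.0163). Neither pair of groups overlapped, but both calls depended on single arrays. That of Rgs19 was lost without FRTL5 basal replicate 1 or 3 (adjusted p = 0.117 and 0.112) and without FRT/TSHR basal replicate 1, 2 or 3 (0.0613, 0.0834 and 0.128), and after quantile normalization (0.0597). That of Rgs22 was lost without FRTL5 basal replicate 3 (0.0924) and without FRT/TSHR basal replicate 3 (0.0712), with only the arrays compared (0.0639) and without all arrays numbered 1 (0.0600). Rgs4 differed by -0.16 ± 0.14, which did not pass.

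None of the 7 adenylyl cyclases, which make cAMP, passed in this comparison (against 25.5% of all probe sets). An unadjusted p under 0.05 was found for 1 (against 33.2% of all probe sets). That was Adcy6, with 6.71, 7.17 and 7.14 in FRTL5 and 6.21, 6.78 and 6.65 in FRT/TSHR, where the groups overlapped and the difference was -0.46 ± 0.18 (adjusted p = 0.0821). Adcy3 differed by -0.18 ± 0.13, and Adcy2, Adcy4, Adcy5, Adcy8 and Adcy10 by -0.21 to 0.08. Of the 12 phosphodiesterases 1 had a higher value in FRT/TSHR (43.2% of all probe sets did), and 3 passed, all lower (25%, against 25.5% called in either direction and 12.2% called lower). Pde3b, a cAMP phosphodiesterase that insulin signalling activates, had 3.56, 3.51 and 3.53 in FRTL5 and 2.80, 3.10 and 2.99 in FRT/TSHR, a difference of -0.57 ± 0.10 (adjusted p = 0.000286), at the lower end of the scale. Pde4a, a cAMP-specific enzyme, had 6.93, 7.28 and 7.40 against 6.61, 6.70 and 6.80, a difference of -0.50 ± 0.13 (adjusted p = 0.00776), but -0.37 (adjusted p = 0.127) when its probe sets were averaged. Pde7a, another cAMP-specific enzyme, had 5.06, 5.02 and 4.65 against 4.36, 4.24 and 4.62, a difference of -0.51 ± 0.17 (adjusted p = 0.0412). Its lowest FRTL5 array lay just above the highest FRT/TSHR array. That call was lost without FRTL5 basal replicate 1 or 2 (adjusted p = 0.135 and 0.124) and without FRT/TSHR basal replicate 1 or 2 (0.109 and 0.155), with only the arrays compared (0.0562), with arrays shifted to 1 median (0.0841), after quantile normalization (0.0895) and without all arrays numbered 1 (0.167). Pde4d differed by -0.21 ± 0.11, which did not pass. Pde4b, also cAMP-specific, differed by 0.04 ± 0.13 on its brightest probe set (adjusted p = 0.895), but its probe sets rc_AA799729_g_at and M25350_s_at were lower in FRT/TSHR by values of -0.71 ± 0.20 and -0.38 ± 0.11 (adjusted p = 0.0126 and 0.0177). For rc_AA799729_g_at the adjusted p was 0.0544 and 0.0506 without FRTL5 basal replicate 1 and 2. For M25350_s_at it was 0.0586 and 0.0531 without FRTL5 basal replicate 2 and 3, 0.0562 and 0.0501 without FRT/TSHR basal replicate 1 and 3, and 0.0877 without all arrays numbered 1.

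Of the 4 regulatory PKA subunits, which hold the kinase inactive until cAMP binds, 3 differed (75%, against 25.5% of all probe sets). They did not all differ in 1 direction. Prkar1a had 9.80, 9.83 and 9.48 in FRTL5 and 9.17, 9.11 and 9.12 in FRT/TSHR, a difference of -0.57 ± 0.11 (adjusted p = 0.000938). Prkar2b had 3.92, 4.25 and 4.26 against 3.38, 3.84 and 3.47, a difference of -0.58 ± 0.16 (adjusted p = 0.0145). Those values lie toward the lower end of the scale (median probe set 5.55), and detection was not measured. Prkar1b was higher in FRT/TSHR, with 7.39, 7.46 and 7.40 against 7.20, 7.06 and 6.31 in FRTL5, a difference of 0.56 ± 0.17 (adjusted p = 0.0236). None of these 3 genes had overlapping groups, and in Prkar1b FRTL5 replicate 3 stood well below the other FRTL5 arrays. Without that array the Prkar1b difference was 0.29 (adjusted p = 0.107), and without FRT/TSHR basal replicate 1, 2 or 3 its adjusted p was 0.0529, 0.0690 and 0.0566. With only the arrays compared it was 0.126. The Prkar2b call was lost without FRTL5 basal replicate 2 or 3 (0.0564 and 0.0572) and without FRT/TSHR basal replicate 1 or 3 (0.0742 and 0.0563). Prkar2a differed by -0.05 ± 0.11. The catalytic subunits Prkaca and Prkacb had differences of -0.47 ± 0.25 and -0.51 ± 0.31 with overlapping groups (adjusted p = 0.217 and 0.286). Their second probe sets pointed the other way, by 0.17 ± 0.16 for Prkaca and 0.30 ± 0.26 for Prkacb (adjusted p = 0.543 and 0.490).

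Among the AKAPs, Akap8, which anchors PKA in the nucleus, had 7.76, 7.82 and 7.72 in FRTL5 and 7.28, 7.26 and 7.33 in FRT/TSHR. The arrays of each line lay close together, with SDs of 0.05 and 0.03, and the difference was -0.48 ± 0.11 (adjusted p = 0.00414). Akap14 was lower in FRT/TSHR as well (-0.47 ± 0.11, adjusted p = 0.00403, but 0.0538 with only the arrays compared and 0.0507 without all arrays numbered 1). Akap1, which anchors PKA at mitochondria, had 6.81, 6.77 and 6.35 against 7.16, 7.56 and 7.23, a difference of 0.67 ± 0.20 (adjusted p = 0.0176). This rested on 1 of its 4 probe sets, since the other 3 differed by -0.23 to 0.25 and 2 of them were lower in FRT/TSHR. Without FRTL5 basal replicate 3 or FRT/TSHR basal replicate 2 its adjusted p was 0.0944 and 0.0879. Akap12 differed by 0.02 ± 0.11, and by -0.24 ± 0.13 on its other probe set (adjusted p = 0.233).

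Rapgef3, which encodes the cAMP-activated Rap exchange factor Epac1, had 6.74, 7.04 and 6.59 in FRTL5 and 5.99, 6.17 and 6.28 in FRT/TSHR. The groups did not overlap, and the difference was -0.65 ± 0.22, or 1.56-fold lower in FRT/TSHR (adjusted p = 0.0373). The call was lost without FRTL5 basal replicate 1 or 2 (adjusted p = 0.0646 and 0.145) and without FRT/TSHR basal replicate 1, 2 or 3 (0.131, 0.0779 and 0.0532). Rapgef4, which encodes Epac2, lay between 2.94 and 3.22 on all 18 arrays, near the lower end of the scale, and differed by 0.01 ± 0.09. None of the 4 CREB, CREM and ATF factors passed, and none had an unadjusted p under 0.05 (against 25.5% and 33.2% of all probe sets). Crem had 6.73, 6.81 and 6.76 in FRTL5 and 6.44, 6.61 and 6.57 in FRT/TSHR, without overlap, a difference of -0.23 ± 0.18 (adjusted p = 0.441). Creb1, Atf2 and Atf3 differed by 0.16 ± 0.14, -0.02 ± 0.16 and -0.07 ± 0.15.

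**Figure D2:**
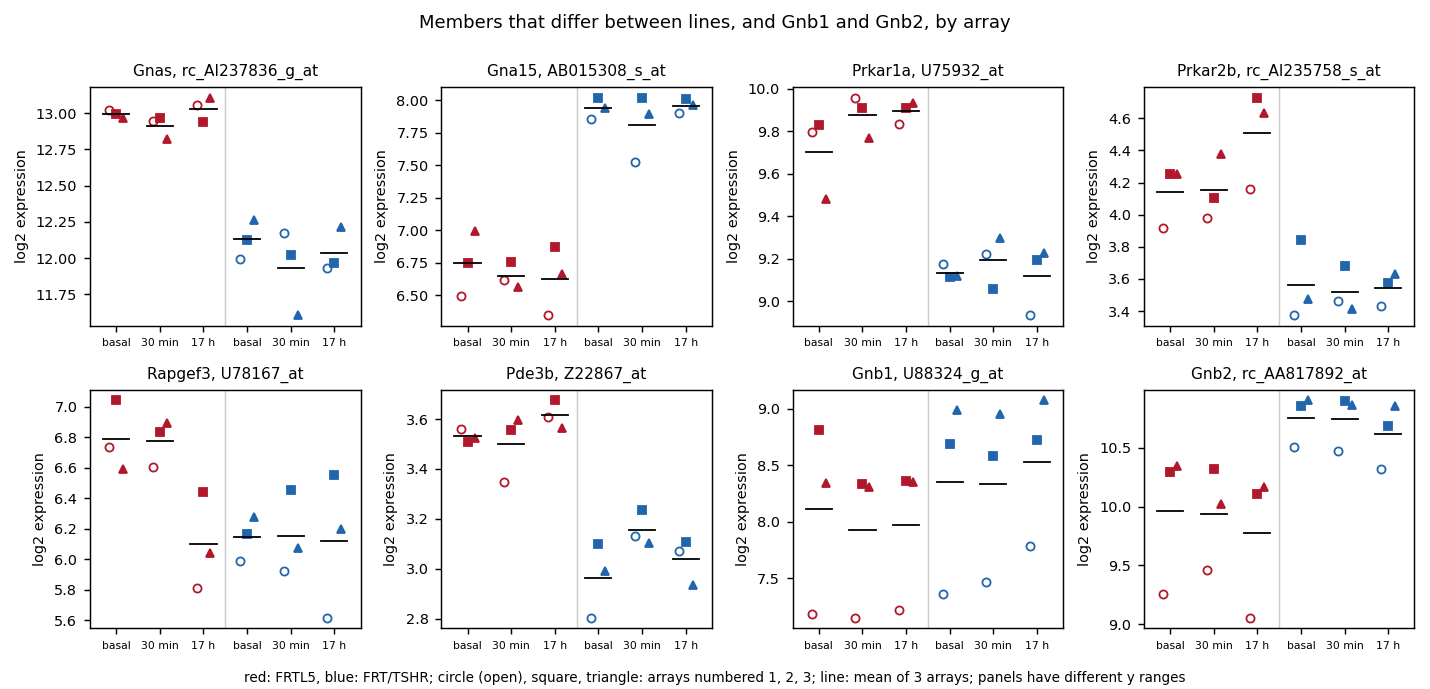
Log2 expression (y axis) on each of the 18 arrays for members that differed between the lines and for Gnb1 and Gnb2, by group (x axis: basal, 30 min and 17 h of TSH for each line). Lines mark the mean of 3 arrays. Gnas stays above 12.8 in all FRTL5 groups and below 12.3 in all FRT/TSHR groups, and the arrays numbered 1 stand low in Gnb1.

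The differences at basal can be followed through the TSH times, since each line has 9 arrays. For 8 members (12.1%, against 15.4% of all probe sets) no FRTL5 array overlapped any FRT/TSHR array. Of these 1, Gna15, stood above in FRT/TSHR (against 8.5% of all probe sets), with 7.52 to 8.02 against 6.35 to 6.99. Gnas, Gnai2, Gng10, Pde3b, Pde4a, Prkar1a and Prkar2b stood above in FRTL5 (7 members, against 6.9% of all probe sets). Gnas spanned 12.82 to 13.11 in FRTL5 and 11.61 to 12.27 in FRT/TSHR, and Prkar1a 9.48 to 9.96 and 8.93 to 9.30. Rapgef3 was not among the 8, because its FRTL5 arrays at 17 h, with 5.81, 6.44 and 6.04, reached into the FRT/TSHR range of 5.62 to 6.55.

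The next comparisons asked what 30 min of TSH changed in FRTL5. None of the 66 members passed in limma (against 0.24% of all probe sets), and 2 had an unadjusted p under 0.05 (against 2.76%). These were Atf3, a stress-induced transcription factor, and Prkar1b. Atf3 had 4.78, 4.80 and 4.79 at basal and 4.86, 5.19 and 5.51 at 30 min. All 3 arrays at 30 min lay above basal, but by 0.07 to 0.72 within numbered pairs, and the difference of 0.40 ± 0.15 did not pass (adjusted p = 1.00). Prkar1b differed by 0.40 ± 0.17, and by 0.03, 0.14 and 1.04 within the numbered pairs. The groups did not overlap for 4 members (6.06%, against 6.35%). The next largest positive difference was that of Akap1 (0.28 ± 0.20), and the largest negative ones were those of Gng5 (-0.42 ± 0.40), Prkaca (-0.33 ± 0.25) and Pde3a (-0.18 ± 0.13). For 64 of the 66 members the 95% interval of the difference lay within -1 and 1. Rapgef3 differed by -0.01 ± 0.22. The probe sets of Crem disagreed at 30 min. The brightest differed by 0.14 ± 0.18, S66024_at by 0.09 ± 0.10 and Z15158mRNA_at by -0.06 ± 0.11. U04835_at had 4.65, 4.51 and 4.67 at basal and 5.05, 4.93 and 4.96 at 30 min. Its groups did not overlap and it was higher in all 3 numbered pairs, but the difference of 0.37 ± 0.10 did not pass (adjusted p = 0.492, and 0.172 with the block).

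Some known cAMP and CREB target genes rose in the same cells. The list held 20 symbols, some of them old and new symbols of the same gene, and 15 such genes were measured. Of these 6 rose at 30 min in FRTL5 (against 0.24% of all probe sets called) and none fell, while 9 did not pass. Values were higher for 12 of the 15, and the median difference was 0.55, against 0.00060 for all probe sets. The 6 that rose were Nr4a1, Nr4a3, Fos, Egr1, Dusp1 and Id1, several of which other growth signals also induce. The list, which includes the member Crem, was chosen with earlier results of these data known, so these counts are no independent test. In FRT/TSHR at 30 min none of the 15 passed, and their median was 0.16, against 0.03.

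At 17 h of TSH in FRTL5 no member passed on its brightest probe set without a block. Rapgef3, Akap8 and Prkacb fell and Pde5a and Prkar2b rose in the fit with a block. Outside the brightest probe sets, Pde4b rose on 2 of its 4 and Crem on 1 of its 4. These were 3 calls among the 100 member probe sets (3%, against 3.56% of all probe sets). The Crem call was lost when any 1 of the arrays compared was left out. Without the block 0 of 66 passed (against 3.56% of all probe sets) and 8 had an unadjusted p under 0.05 (against 12.7%). The groups did not overlap for 13 members (19.7%, against 15.4%), 6 with higher (against 7.6%) and 7 with lower values at 17 h (against 7.78%). Arrays with the same number deviated together within a line, so the fit with the number as a block is given beside this one. With that block 5 members passed (7.58%, against 9.92%), Pde5a and Prkar2b upward (against 4.15% of all probe sets) and Rapgef3, Akap8 and Prkacb downward (against 5.77%).

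Rapgef3 had 6.74, 7.04 and 6.59 at basal, 6.61, 6.84 and 6.89 at 30 min and 5.81, 6.44 and 6.04 at 17 h in FRTL5. Every array at 17 h lay below every earlier one, and the differences within numbered pairs were -0.93, -0.60 and -0.55. The difference from basal was -0.69 ± 0.22, or 1.62-fold lower (adjusted p = 0.108, and 0.00603 with the block), and from 30 min -0.68 ± 0.22 (0.104, and 0.00609 with the block). Rapgef4 differed from basal by 0.08 ± 0.09.

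Among the PKA genes, Prkacb, a catalytic subunit, had 8.54, 8.02 and 7.61 at basal and 7.92, 7.04 and 7.55 at 17 h. The groups overlapped, and the paired differences were -0.63, -0.98 and -0.06, with a mean of -0.56 ± 0.31 (adjusted p = 0.541, and 0.0298 with the block). Its other probe set, D10770_s_at, differed by 0.12 ± 0.26 and did not pass with the block either (adjusted p = 0.731). Prkaca differed by -0.39 ± 0.25 (0.625, and 0.247 with the block). Prkar2b, toward the lower end of the scale, had 3.92, 4.25 and 4.26 at basal and 4.16, 4.73 and 4.63 at 17 h. It was higher by 0.24, 0.47 and 0.38 within pairs (0.36 ± 0.16, adjusted p = 0.359, and 0.0444 with the block). Prkar1a, Prkar1b and Prkar2a differed by 0.19 ± 0.11, 0.34 ± 0.17 and -0.25 ± 0.11, and none passed. The nuclear anchor Akap8 had 7.76, 7.82 and 7.72 at basal and 7.60, 7.29 and 7.22 at 17 h. All arrays at 17 h lay below basal, by -0.40 ± 0.11 (adjusted p = 0.0689, and 0.0153 with the block), and without FRTL5 17 h replicate 1 the adjusted p without the block was 0.0205. Akap12 differed by 0.00 ± 0.11.

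Pde5a, which encodes a cyclic GMP-specific phosphodiesterase, had 4.85, 4.76 and 4.82 at basal and 4.90, 5.50 and 5.54 at 17 h. Replicates 2 and 3 were higher by 0.75 and 0.72, while replicate 1 was higher by 0.04. The difference was 0.50 ± 0.15 (adjusted p = 0.103, and 0.0249 with the block), and without FRTL5 17 h replicate 1 it was 0.71 (adjusted p = 0.00836 without the block). Its other probe set D89093_at differed by 0.37 ± 0.12 (0.129, and 0.0475 with the block).

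**Figure D3:**
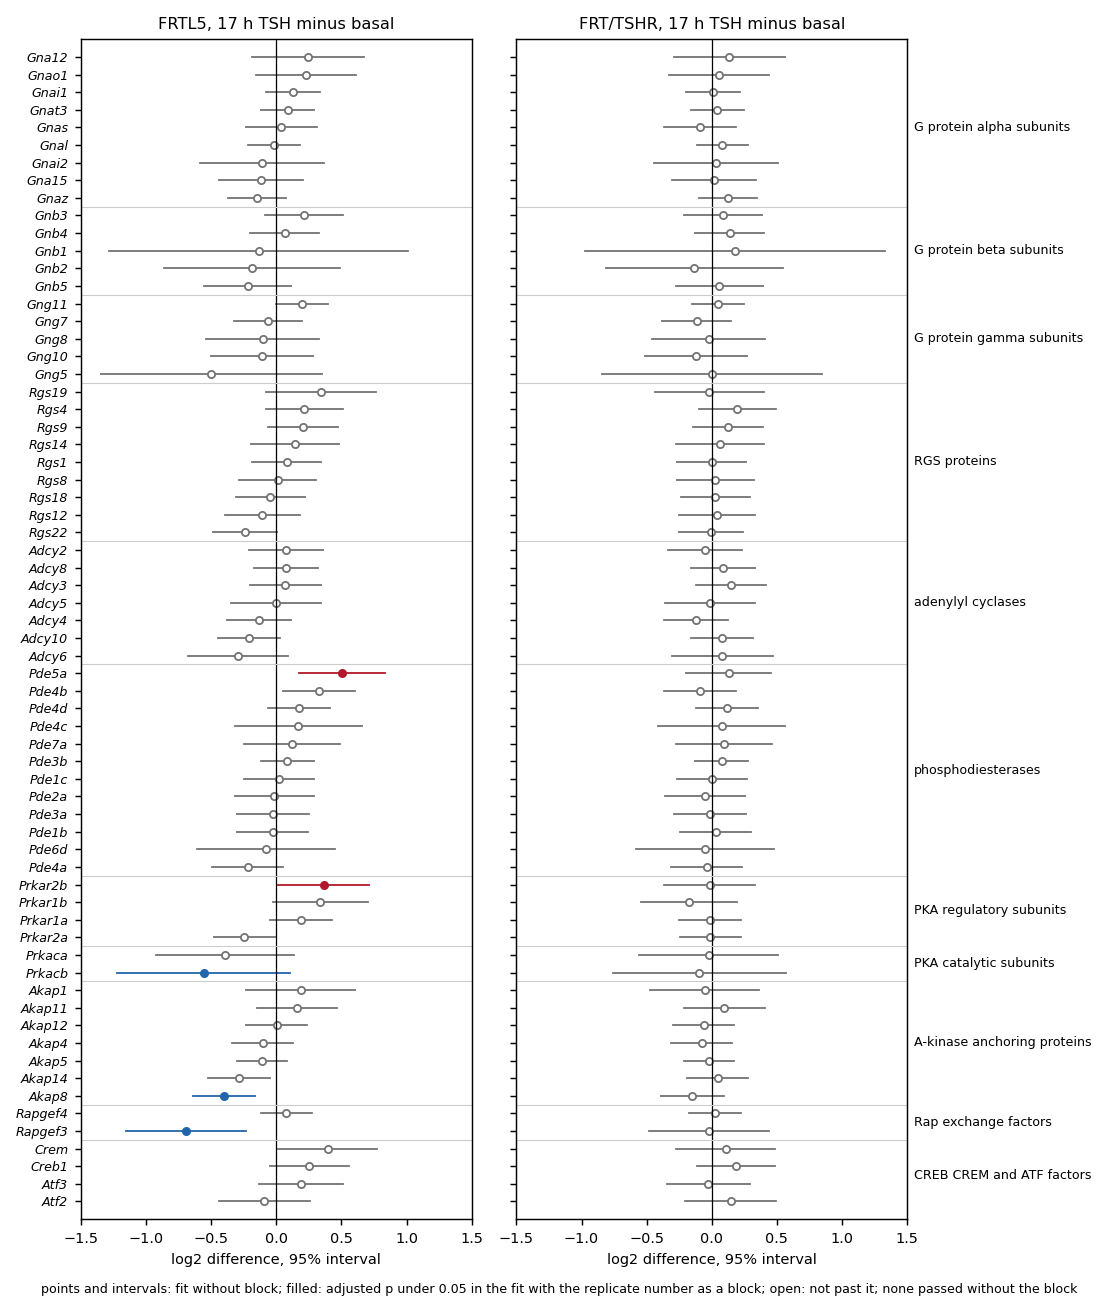
Log2 difference between 17 h of TSH and basal (x axis, with 95% intervals, fit without block) for the 66 members (y axis) in FRTL5 and in FRT/TSHR, 3 arrays per group. Filled points passed only with the replicate number as a block. In FRTL5 the values run from -0.69 (Rapgef3) to 0.50 (Pde5a), and in FRT/TSHR they run from -0.18 to 0.20.

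Pde4b, which encodes a cAMP-specific phosphodiesterase whose short forms cAMP induces in many cells, had 4 probe sets. The probe set rc_AA799729_g_at had 4.82, 4.77 and 4.32 at basal, 4.94, 5.39 and 5.61 at 30 min and 6.52, 5.95 and 5.72 at 17 h in FRTL5. Every array at 17 h lay above every earlier array, and every array at 30 min above basal. It rose by 1.43 ± 0.20, or 2.69-fold, at 17 h (limma adjusted p = 0.000853, and 0.000492 with the block). The difference of 0.68 ± 0.20 at 30 min did not pass (adjusted p = 0.546). M25350_s_at rose by 0.49 ± 0.11 at 17 h (limma adjusted p = 0.0193, and 0.0068 with the block). In fits without the block this call was lost without FRTL5 basal replicate 1 (0.0706) or FRTL5 17 h replicate 2 (0.103). It was also lost with only the arrays compared (0.120) or without all arrays numbered 1 (0.139). The brightest probe set, rc_AA799729_at, had 5.39, 5.29 and 4.99 at basal and 5.77, 5.45 and 5.43 at 17 h, without overlap, a difference of 0.33 ± 0.13 that did not pass (adjusted p = 0.260, and 0.135 with the block). J04563_at differed by 0.25 ± 0.12 and did not pass. The 4 probe sets thus all had higher values at 17 h, by 0.25 to 1.43, and their mean rose by 0.62 ± 0.10 (adjusted p = 0.00149). Pde4a and Pde4d differed by -0.22 ± 0.13 and 0.17 ± 0.11.

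Between 30 min and 17 h Pde4b rose by 0.75 ± 0.20 on rc_AA799729_g_at and by 0.45 ± 0.11 on M25350_s_at (adjusted p = 0.0427 and 0.0279). No other of the 100 member probe sets passed, so that 2% did (against 4.21% of all probe sets). The first call was lost without FRTL5 30 min replicate 1 or 2 (0.173 and 0.100) or FRTL5 17 h replicate 1 or 2 (0.169 and 0.0798), with only the arrays compared (0.225) and without all arrays numbered 1, where the difference was 0.34 (0.410). The second was lost without FRTL5 30 min replicate 1 or 2 (0.0911 and 0.133) or FRTL5 17 h replicate 1, 2 or 3 (0.0536, 0.132 and 0.0519), with only the arrays compared (0.124) and without all arrays numbered 1 (0.165). On the brightest probe sets none of the 66 members passed from 30 min to 17 h (against 4.21% of all probe sets), and 4 had an unadjusted p under 0.05 (against 13.1%). With the block 4 passed (6.06%, against 10.5%), Prkar2b upward (against 4.77%) and Akap8, Prkacb and Rapgef3 downward (against 5.71%). The groups did not overlap for 6 members (9.09%, against 17.1%).

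Crem had 6.73, 6.81 and 6.76 at basal, 7.001, 6.67 and 7.06 at 30 min and 7.15, 7.26 and 7.08 at 17 h on its brightest probe set in FRTL5. The arrays at 17 h lay above all earlier ones, and the difference from basal was 0.40 ± 0.18 (adjusted p = 0.363, and 0.117 with the block). The probe set S66024_at, toward the lower end of the scale, had 3.51, 3.64 and 3.60 at basal and 4.12, 3.96 and 4.03 at 17 h. It rose by 0.45 ± 0.10 (limma adjusted p = 0.0234 without the block, and 0.0121 with it). Arrays were left out only in the fit without the block. That call was lost when any 1 of the 6 arrays was left out, with adjusted p of 0.0798, 0.0519 and 0.0535 without FRTL5 basal replicate 1, 2 and 3, and of 0.0826, 0.0504 and 0.0709 without FRTL5 17 h replicate 1, 2 and 3. With only the arrays compared it was 0.122, and without all arrays numbered 1 it was 0.184. U04835_at and Z15158mRNA_at differed by 0.30 ± 0.10 and 0.08 ± 0.11 and did not pass, so that all 4 probe sets had higher values at 17 h. From 30 min to 17 h S66024_at differed by 0.36 ± 0.10 (limma adjusted p = 0.0645, and 0.0363 with the block). It also passed with an intensity trend and robust prior. The brightest probe set differed by 0.25 ± 0.18, U04835_at by -0.07 ± 0.10 and Z15158mRNA_at by 0.14 ± 0.11, and none of these passed. Creb1 had 4.47, 4.66 and 4.49 at basal and 4.60, 5.03 and 4.75 at 17 h (0.25 ± 0.14, adjusted p = 0.530), and Atf3 differed by 0.19 ± 0.15.

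The G protein and adenylyl cyclase genes showed no called change at 17 h in FRTL5, with or without the block. Gnas had 13.05, 12.94 and 13.11 at 17 h against 13.02, 12.99 and 12.97 at basal, a difference of 0.04 ± 0.13 with a 95% interval of -0.23 to 0.31, and its 4 probe sets ran from -0.24 to 0.30. Gnai1, Gnai2 and Gna15 differed by 0.12 ± 0.10, -0.11 ± 0.22 and -0.12 ± 0.15. Gng5 differed by -0.50 ± 0.40, with overlapping groups, and by 0.12 on its other probe set. Adcy3 and Adcy6 differed by 0.07 ± 0.13 and -0.29 ± 0.18, and Rgs4 by 0.22 ± 0.14. For 62 of the 66 members the 95% interval lay within -1 and 1.

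**Figure D4:**
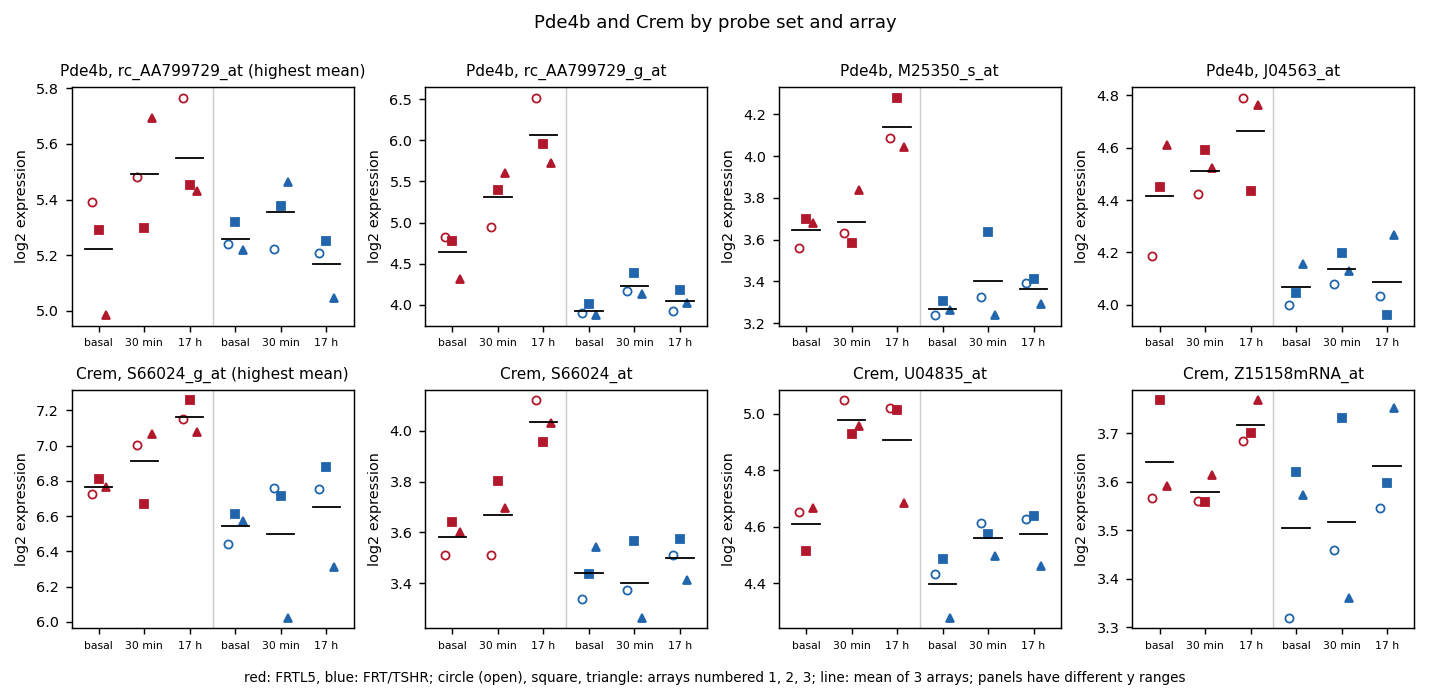
Log2 expression (y axis) on each of the 18 arrays for the 4 probe sets of Pde4b and the 4 of Crem, by group (x axis: basal, 30 min and 17 h of TSH for each line). Lines mark the mean of 3 arrays. On the Pde4b probe set rc_AA799729_g_at the FRTL5 arrays climb from 4.32 to 4.82 at basal to 5.72 to 6.52 at 17 h, while all FRT/TSHR arrays lie between 3.87 and 4.39.

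In FRT/TSHR none of the 66 members passed at 30 min or 17 h of TSH (against 0% of all probe sets at both times), and none had an unadjusted p under 0.05 (against 2.38% at 30 min and 1.24% at 17 h). At 30 min 45 of 66 had higher values than at basal, against 58.1% of all probe sets, and the groups did not overlap for 7 (10.6%, against 7.84%). The largest values were those of Gnai2 (0.28 ± 0.22), Adcy3 (0.24 ± 0.13) and Rgs18 (0.24 ± 0.12), and of Gng5 (-0.44 ± 0.40), Rgs19 (-0.22 ± 0.20) and Adcy4 (-0.20 ± 0.12). At 17 h the differences ran from -0.18 to 0.20, and the groups did not overlap for 4 members (6.06%, against 5.64%). Their ends were Rgs4 (0.20 ± 0.14), Creb1 (0.19 ± 0.14) and Gnb1 (0.18 ± 0.54), and Prkar1b (-0.18 ± 0.17), Akap8 (-0.15 ± 0.11) and Gnb2 (-0.13 ± 0.32). For 65 of the 66 members the 95% interval at 17 h lay within -1 and 1. Gnas differed by -0.20 ± 0.13 at 30 min and -0.09 ± 0.13 at 17 h.

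Rapgef3, Crem and Pde4b had these values in FRT/TSHR. Rapgef3 had 5.99, 6.17 and 6.28 at basal and 5.62, 6.55 and 6.20 at 17 h, with paired differences of -0.37, 0.38 and -0.08. The pairs ran in both directions, and the mean was -0.02 ± 0.22. Crem had 6.44, 6.61 and 6.57 at basal and 6.76, 6.88 and 6.31 at 17 h, a difference of 0.11 ± 0.18. The 4 probe sets of Pde4b differed by -0.09 to 0.11 at 17 h, the brightest lower and the others higher than at basal. Of these rc_AA799729_g_at had 3.90, 4.002 and 3.87 at basal and 4.17, 4.39 and 4.13 at 30 min. At 17 h it had 3.93, 4.17 and 4.02, all toward the lower end of the scale. Its arrays at 30 min lay above basal without overlap, by 0.30 ± 0.20 (adjusted p = 1.00), and the difference at 17 h was 0.11 ± 0.20.

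Whether the TSH effect differed between the lines was tested as the FRT/TSHR effect minus the FRTL5 effect. No member passed on its brightest probe set at 30 min (against 0.0343% of all probe sets) or 17 h (against 0.789%) in limma, and 0 and 2 had an unadjusted p under 0.05 (against 2.6% and 8.38%). The 2 at 17 h were Rapgef3 (0.67 ± 0.31, adjusted p = 0.569, and 0.0846 with the block) and Pde4b (-0.42 ± 0.19, adjusted p = 0.528). A difference between the lines in the change of Rapgef3 was thus not shown. The Pde4b probe set rc_AA799729_g_at did pass at 17 h, with -1.31 ± 0.28 (adjusted p = 0.0404), the FRTL5 rise being the larger one. It was 1 of the 100 member probe sets (1%, against 0.789% of all probe sets). The call was lost without FRTL5 basal replicate 2 or 3 (0.0571 and 0.0899), FRTL5 17 h replicate 1 or 2 (0.0572 and 0.0743), FRT/TSHR basal replicate 1, 2 or 3 (0.0918, 0.0938 and 0.0805) or FRT/TSHR 17 h replicate 1, 2 or 3 (0.104, 0.0625 and 0.0637), with only the arrays compared (0.0787) and without all arrays numbered 1 (0.0680). For Crem the difference of effects at 17 h was -0.29 ± 0.25 on the brightest probe set and -0.39 ± 0.15 on S66024_at (adjusted p = 0.977 and 0.381).

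Genes of the pathway outside the member families were taken from lists chosen by function, with earlier results of these data known. Calls of single genes outside the members were not followed through left-out arrays or the other alternatives, as calls of members were. The list of further pathway genes held 45 symbols, some of them old and new symbols of the same gene. It includes Rap proteins, receptor kinases, arrestins and G protein chaperones, and 20 genes were measured. In FRTL5 1 of the 20 fell at 17 h and none rose (against 1.92% and 1.64% of all probe sets). It was Grk5, a kinase that desensitises G protein-coupled receptors, which fell by 0.65 ± 0.16, from 6.79 ± 0.31 to 6.14 ± 0.30 (log2, mean ± SD, n = 3; adjusted p = 0.0379). None of the 20 passed in FRT/TSHR (against 0% of all probe sets at both times). Between the basal lines 2 were higher in FRT/TSHR and 1 lower (against 13.3% and 12.2% of all probe sets). Grk5 was lower by a difference of -2.29 ± 0.16, or 4.90-fold (adjusted p = 2.25e-08), a larger difference than that of any of the 66 members. Rap1b, a small GTPase that Epac proteins act on, and Ric8a, a chaperone of alpha subunits, were higher by 0.89 ± 0.27 and 0.36 ± 0.10 (adjusted p = 0.0228 and 0.0135). The list of receptors that act through cAMP held 52 symbols, again with old and new symbols of the same gene. Of the 45 receptors measured, none passed in any TSH comparison within a line. Of all probe sets 0.24% to 4.21% passed in these comparisons in FRTL5 and 0% in FRT/TSHR. The adenosine receptor gene Adora1 was lower in basal FRT/TSHR cells (-0.45 ± 0.16, adjusted p = 0.0452), and no other receptor of the list passed. Between the basal lines 1 of the 45 receptors thus passed, against 25.5% of all probe sets. Of the 15 measured cAMP and CREB targets, Id1 and Per2 fell at 17 h in FRTL5, by 0.68 ± 0.15 each (adjusted p = 0.0170 and 0.0189). Of all probe sets 1.92% were called lower in that comparison.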

How the data were processed

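Expression was measured on 18 one-colour Affymetrix arrays, 3 per group. The deposited values are log2 expression per probe set, which the authors made with RMA (background correction, normalization across arrays, summary of probes) per the submitters' processing notes, with version and settings not given in the sources used here. Values from 2.61 to 13.58 fit a log2 scale. Detection above background was not measured, and no filter on low signal was applied. Of 8799 probe sets 59 controls were left out. Symbols came from the platform annotation, and all 66 members matched the reference gene table by gene number.

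A model of 6 group means was fitted in limma 3.58.1 (R 4.3.3) with lmFit and eBayes (residual degrees of freedom 12, prior 3.597). In each of 8 comparisons two-sided p-values were Benjamini-Hochberg adjusted over 8740 probe sets, and a probe set passed (was called) at an adjusted p under 0.05. Errors of differences are limma standard errors, and 95% intervals are limma's. Precision is limited by the number of arrays. The script was tested on simulated data.

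Replicate numbers come from the labels. Deviations from group means correlated at r = 0.15 to 0.80 in all 18 same-number pairs within a line, so the number pairs arrays there. The fit with line by number as a block is given where it changes a call of a member within a line. Between lines at the same time only 6 of 9 pairs exceeded 0.1, and no pairing was assumed.

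The members and the lists of other pathway genes, receptors, cAMP and CREB targets and thyrocyte markers were chosen with earlier results of these data known. The text names Crem and Rapgef3, members called within a line or in a difference of effects, called members whose basal lines did not overlap, the largest differences at each TSH time, and a preset list of pathway genes. Of that list Gnai3, Gnaq, Adcy9, Pde8a, Pde10a, Atf1, Atf4, Rgs2 and Rgs16 had no probe set that met the rule. The alternatives were the block, only the arrays compared, an intensity trend with robust prior, median and quantile scaling, a filter on low means, the mean of a gene's probe sets, no arrays numbered 1, and leaving out each array. Promoter windows are RefSeq's (GRCr8), and the motif search covered both strands.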

Additional observations from a re-analysis of the deposited data

Results flagged for a closer look

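The TSH effect at 17 h on the Pde4b probe set rc_AA799729_g_at differed between the lines by a test of the difference itself (FRT/TSHR effect minus FRTL5 effect -1.31 ± 0.28, limma adjusted p = 0.0404). It was 1 of the 100 member probe sets (1%, against 0.789% of all probe sets). Leaving out single arrays ended the call for 10 of the 12 arrays (adjusted p up to 0.104), and it was also lost with only the arrays compared (0.0787) and without all arrays numbered 1 (0.0680). The probe set was higher by 1.43 in FRTL5 and by 0.11 in FRT/TSHR, in all 3 numbered pairs of each line. Its FRT/TSHR values lie toward the lower end of the scale. The other 3 probe sets of Pde4b had differences of effects of -0.23 to -0.42, in the same direction, which did not pass. Line, TSH dose and medium differ together and cannot be told apart.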

How the results depend on the processing

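No direction reversed in 558 alternative values of 42 followed probe set differences. These were followed because they passed in the main fit or, for FRTL5 at 17 h, with the block. A reversal was therefore unlikely from the start. Of 25 probe sets called between the basal lines, 13 passed in every fit that left out 1 array and 10 under all alternatives. The count of 17 members stayed within 1.5 times in the other alternatives (20 with the replicate number as a block, where arrays are not shown to be paired), and without 1 array it was 11 to 14. For FRTL5 at 17 h against basal, 0 members passed, but 5 with the replicate block, 2 with the mean of a gene's probe sets (Pde4b and Akap8), 1 without the arrays numbered 1 (Pde5a), and 0 to 2 without 1 array. Akap8 has 1 probe set, so the mean left its difference at -0.40, while its limma adjusted p went from 0.0689 to 0.0477. For 17 h against 30 min the count was 4 with the block, 1 with the mean of probe sets (Pde4b), 1 without the arrays numbered 1 (Pde5a), and 0 to 2 without 1 array. The difference of effects at 17 h gave 1 with the mean of probe sets (Pde4b, -0.59 ± 0.14, adjusted p = 0.0471) and 0 without any 1 array. On the brightest probe sets the block changed no other call of a member within a line. On other probe sets it added Pde5a D89093_at at 17 h against basal and Crem S66024_at at 17 h against 30 min. Over all probe sets FRTL5 at 17 h against basal gave 311 calls, 867 with the block and 96 with only the arrays compared. The cause of these shifts was not tested. On rc_AA799729_g_at Pde4b passed at 17 h under each alternative run (adjusted p up to 0.0455). The filter on low means left out 33 members, and the mean of probe sets gives no value for single ones.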
